A study of Anguilla anguilla and Anguilla rostrata with 84 samples.

Results

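Livers of wild American eels (Anguilla rostrata) from St Pierre lake and St François lake, both in Quebec, were compared at every transcript on an eel array. The organism label of these arrays names both eel species, with the second that of the reference pool. The fish were chosen by their labelled collection site, with 5 fish from each lake, so that 10 of the 84 samples in the series and all 992 contigs on the array enter the comparison. A contig is an assembled stretch of transcript that stands for a gene. The contigs carry identifiers only. Of the 992, 0 matched an entry in the RefSeq gene table of the European eel, so no gene name, gene group or cell type marker could be given, and the labelled tissue could not be checked against liver genes.

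The series holds wild eels from 7 sites and eels exposed in the laboratory, and its design text states that the sites were picked along a known gradient of metal and organic pollution. The St Pierre fish and the St François fish were set against each other, and then each lake was set against 10 American eels of the other Quebec sites, Sud-Ouest and St Jean, with 5 fish each, called the rivers here. Another 15 wild fish, European eels (Anguilla anguilla) of Dordogne, Garonne and Gironde in France, entered only through the shared estimate of spread and as background levels. None of these wild fish has a treatment, and age, sex and collection date are not given in the labels. The replicate numbers used below only name fish.

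Each fish gave liver RNA that carried Cy3, and it shared its array with a Cy5-labelled pool of liver RNA from 30 European eels of Certes in France. Unless another scale is named, every value below is log2 of the fish signal over the pool signal at the same contig. The signals were background-corrected and the ratios normalized within each array by loess, and 1 unit is a doubling. The normalization centres the ratios of an array near 0, so a level of 0 does not mean equal signal. At contig_31300, St Pierre replicate 2 had a level of 0.004 with fish and pool signals of 545.5 and 92.3 intensity units. The pool is also from the other eel species, so a level is relative to that pool only. Levels were compared between fish at 1 contig, never between contigs.

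St Pierre lake and St François lake are broad, slow stretches of the St Lawrence River, with St Pierre downstream of Montreal and St François upstream of it. American eels enter such waters as juveniles and stay as yellow eels for years before they return to the sea to spawn. The liver of a fish takes up, transforms and excretes metals and organic compounds, makes most of the proteins of the plasma, and handles the lipid that eels lay down for their migration.

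The arrays limited the precision more in some fish than in others. St Pierre arrays had 957.4 ± 24.8 contigs above background in both channels and St François arrays had 974.8 ± 12.4 (SD, n = 5 each). The difference of −17.4 contigs did not pass an exact permutation test (two-sided p = 0.206, over all splits of the 10 fish, where the smallest possible p is 0.00794). Above background here means a mean signal above 0. Where the mean had to exceed 2 SD of the contig's own 3 spots instead, the numbers were 652.4 ± 84.2 on St Pierre arrays and 739.6 ± 140 on St François arrays, a difference of −87.2 (exact permutation p = 0.262). The median signal of the pool ranged from 17.5 to 468 intensity units on St Pierre arrays and from 30 to 658 on St François arrays. No lake array repeated the values of another.

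The livers of the lakes differed at few contigs. With limma's moderated test over the 35 wild fish and Benjamini-Hochberg adjustment over 992 contigs, 4 contigs passed an adjusted p of 0.05, which is 0.403% of those tested. The fit takes 1 spread per contig for all 7 sites. Where St Pierre fish spread more than the other sites, as described below, the SE and p of comparisons with St Pierre tend to be too small. All 4 were higher in St Pierre fish and 0 were lower. At an unadjusted p of 0.05, 88 contigs passed. The median size of the difference over all contigs was 0.14, and 7 contigs differed by more than 1, all of them higher in St Pierre fish. The 95% interval of the difference lay wholly within 1 unit of 0 at 894 contigs (90.1%). These ratios carry an offset of 50 intensity units from the background correction, which draws the ratios of dim spots toward 0. With an offset of 10, the dim contig_26814, described below, differed by −0.73 in place of −0.46. The intervals therefore do not bound the difference in RNA at dim contigs. Of the 992 contigs, 478 were higher and 514 lower in St Pierre fish before any test.

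**Figure D1:**
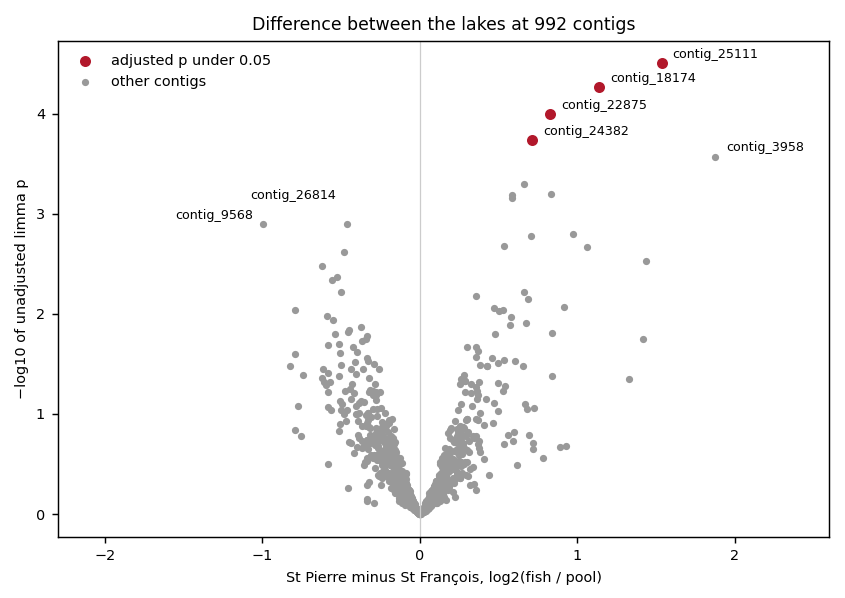
Each point is 1 of 992 contigs, with the St Pierre minus St François difference in log2(fish / pool) on the x axis and −log10 of the unadjusted limma p on the y axis. Red points are the 4 contigs that passed an adjusted p of 0.05, all on the side of higher values in St Pierre fish, and contig_3958 has the largest difference without passing.

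contig_25111 had the largest difference among those that passed. Its values were −0.50, −0.49, −1.22, 0.83 and −0.97 in St Pierre fish, and −1.35, −1.96, −2.16, −2.34 and −2.22 in St François fish. Every St Pierre fish lay above every St François fish, with St Pierre replicate 4 far above the rest and St Pierre replicate 3 only a little above St François replicate 1. The means were −0.47 ± 0.79 in St Pierre fish and −2.01 ± 0.39 in St François fish (SD, n = 5 each), a difference of 1.54 (SE 0.32, limma adjusted p = 0.0270), or 2.90-fold with a 95% interval of 1.85 to 4.55. It was the St François level that stood apart from the rivers. Against the rivers, contig_25111 fell by 1.59 in St François fish (SE 0.28, limma adjusted p = 0.000671), while the St Pierre difference was −0.05 (SE 0.28, limma adjusted p = 0.946). Over the 7 sites St François had the lowest mean and St Pierre the third highest, next to St Jean at −0.37 ± 0.74 and Sud-Ouest at −0.47 ± 0.41, which lie within its own spread.

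contig_18174 showed the other arrangement, with St Pierre as the site that stood apart. It had 0.82, 0.38, 0.97, 0.20 and 1.43 in St Pierre fish, against −0.15, 0.08, −0.61, −0.71 and −0.50 in St François fish. The ranges did not overlap, and St Pierre replicates 2 and 4 came nearest to the St François fish. The means were 0.76 ± 0.49 in St Pierre fish and −0.38 ± 0.33 in St François fish (SD, n = 5 each), a difference of 1.14 (SE 0.25, limma adjusted p = 0.0270). Against the rivers contig_18174 rose by 1.17 in St Pierre fish (SE 0.21, limma adjusted p = 0.00142), and the St François difference was 0.03 (SE 0.21, limma adjusted p = 0.981). Of the 7 sites only Garonne had a higher mean, at 0.92 ± 0.56, which does not differ from St Pierre beyond the spread.

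The other 2 contigs that passed had smaller differences and are named because only 4 passed, a choice made after their values were seen. contig_22875 had 0.66, 0.35, 0.87, 0.87 and 0.93 in St Pierre fish, against 0.18, −0.24, 0.28, −0.57 and −0.12 in St François fish. The ranges were separated by a narrow gap, between St Pierre replicate 2 and St François replicate 3. The difference was 0.83 (SE 0.19, limma adjusted p = 0.0337), and St Pierre had the highest and St François the lowest mean of the 7 sites. contig_24382 had 0.86, 0.15, 0.26, 0.71 and −0.19 in St Pierre fish, against −0.06, −0.18, −0.41, −0.77 and −0.35 in St François fish. Here the lakes overlapped, since St Pierre replicate 5 lay below 2 of the St François fish. The difference was 0.71 (SE 0.17, limma adjusted p = 0.0459), again between the highest and the lowest of the 7 site means. Set against the rivers, contig_22875 and contig_24382 differed by 0.59 and 0.16 in St Pierre fish and by −0.24 and −0.55 in St François fish, and none of these passed.

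No contig was lower in St Pierre fish past the threshold. The 2 lower contigs with the smallest unadjusted p are given as values. contig_9568 had −0.12, −0.64, −0.07, −1.37 and −1.20 in St Pierre fish, against 0.31, 0.24, 0.31, 0.25 and 0.47 in St François fish. The St François fish lay close together, the St Pierre fish spread widely with replicates 4 and 5 lowest, and the ranges did not overlap. The difference was −0.99 (SE 0.28, 95% interval −1.57 to −0.42, limma adjusted p = 0.116), while against the rivers contig_9568 fell by 1.75 in St Pierre fish (SE 0.24, limma adjusted p = 3.44e-05). contig_26814 had −0.07, 0.11, 0.22, −0.42 and 0.39 in St Pierre fish, against 0.71, 0.45, 0.55, 0.64 and 0.20 in St François fish. These ranges overlapped, and the difference was −0.46 (SE 0.13, 95% interval −0.73 to −0.20, limma adjusted p = 0.116). With the median of the 3 spots in place of their mean it was −0.56 and passed (limma adjusted p = 0.0336). It rests on dim spots, with pool signals of at most 54.2 intensity units on St Pierre arrays and 108.3 on St François arrays.

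**Figure D2:**
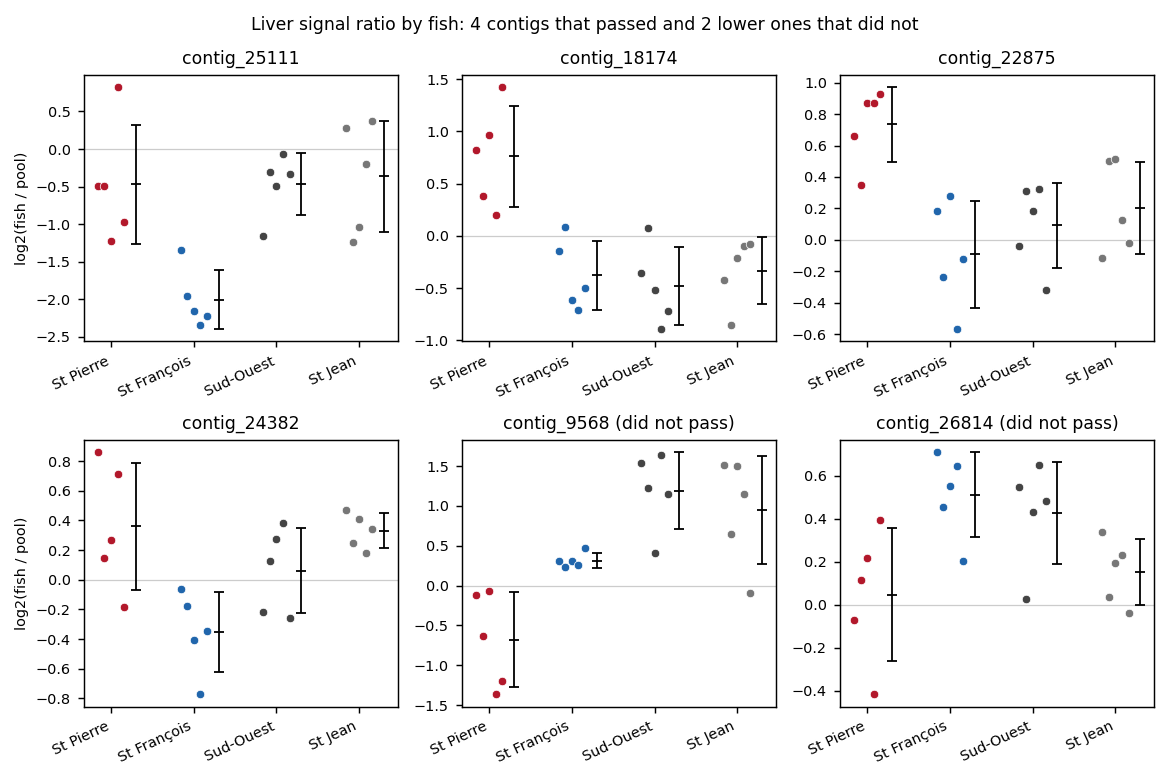
Log2(fish / pool) of every Quebec fish (points, 5 per site) at the 4 contigs that passed between the lakes and at 2 lower ones that did not, with the mean and SD of each site as bars beside the points. St François lies lowest at contig_25111, St Pierre highest at contig_18174, and only at contig_24382 and contig_26814 do the lakes overlap.

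The 4 differences were looked for in each channel alone, as log2 signal minus the median of the array. The fish channel of contig_25111 was higher by 1.45 in St Pierre fish and its pool channel by 0.03. For contig_22875 the fish and pool channel differences were 0.89 and 0.03, and for contig_24382 they were 0.83 and 0.08. At these 3 contigs the mean of the pool channel, the same RNA on every array, was nearly level between the lakes. Single arrays scattered around it, with pool SDs at contig_25111 of 1.08 on St Pierre and 0.79 on St François arrays. These SDs were 0.37 and 0.28 at contig_22875 and 0.37 and 0.46 at contig_24382. At contig_18174 the fish channel was higher by 1.81 in St Pierre fish and the pool channel by 0.52, and at contig_9568 both channels were lower there, by −1.66 and −0.60. The fish channel of contig_26814 differed by −0.08 and its pool channel by 0.39, so that most of its ratio difference came from the pool channel.

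Complete separation of the lakes, which carries no adjustment for the number of contigs, was more frequent than a pass. All 5 St Pierre fish lay above all 5 St François fish at 15 contigs (1.51% of 992) and below them at 8 contigs (0.806%), which makes 23 contigs in both directions (2.32%). A random split of these fish into 5 and 5 separates a contig, in either direction, with a probability of 0.00794. Contigs are not independent, and the count of 23 was not tested. The mean differences ran in size between 0.28 and 1.54 at the 15 contigs and between 0.28 and 0.99 at the 8 contigs. Of the 4 contigs that passed, 3 were among the 15. contig_15825, described below, was separated too, at 0.93 to 1.17 in St Pierre fish and −1.24 to 0.86 in St François fish. Its difference of 1.44 had an SE of 0.45 and did not pass (limma adjusted p = 0.173).

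The ratios of St Pierre fish were less alike than those of St François fish. The pool channel also varied between arrays, as given below. How much of the spread came from the fish and how much from their arrays was not tested. The SD over the 5 fish was larger in St Pierre at 648 of the 992 contigs (65.3%). Its median was 0.322 in St Pierre fish and 0.244 in St François fish, and the other 5 wild sites had medians between 0.233 and 0.287. The SD exceeded 1 at 36 contigs in St Pierre fish and at 6 contigs in St François fish. At the other 5 wild sites it did so at 4 to 22 contigs, from Dordogne to Garonne. These counts are a description with no test. St Pierre replicates 4 and 5 lay farthest from the median of their lake, with a root mean square deviation over all contigs of 0.556 and 0.572, against 0.243 to 0.389 in the other 8 lake fish. Over St Pierre replicates 1 to 3 alone the median SD was 0.237, a choice of fish made after the data were seen. This value cannot be set against the 0.244 of St François. An SD over 3 fish tends to come out smaller than an SD over 5. The fish farthest from the median were also left out on the St Pierre side only.

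**Figure D3:**
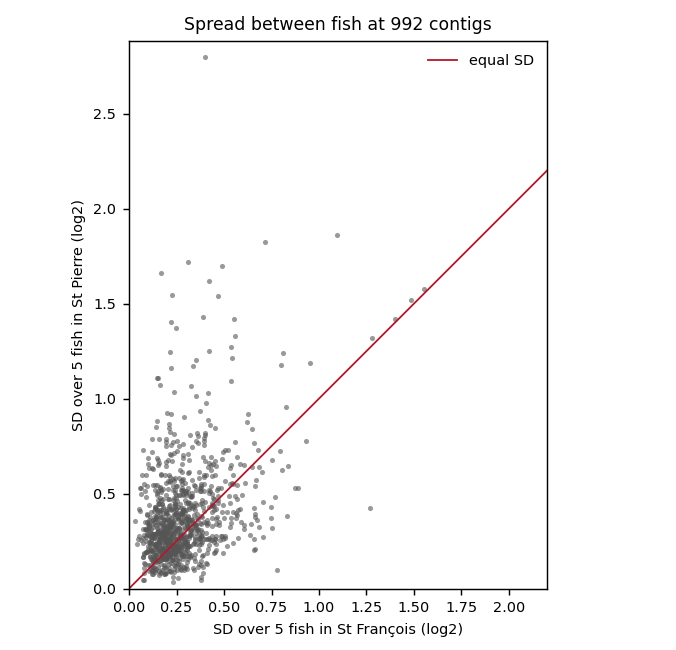
SD of log2(fish / pool) over 5 St Pierre fish (y axis) and over 5 St François fish (x axis) at each of 992 contigs, with a line of equal SD. More points lie above the line, 648 of 992, and the SD exceeds 1 at 36 contigs in St Pierre fish and at 6 in St François fish. At the other 5 wild sites, not shown, it exceeds 1 at 4 to 22 contigs.

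The same ratios were also compared as profiles over all contigs, which is a second description of this spread and no separate evidence. Across contigs, which are not independent replicates, the 10 pairs of St Pierre fish had Pearson correlations from 0.258 to 0.539 with a median of 0.382. The 10 pairs of St François fish had 0.467 to 0.814 with a median of 0.610, and the 25 pairs across the lakes had 0.309 to 0.727 with a median of 0.441. The ratios of a St Pierre array were thus, in the median pair, less like those of another St Pierre array than like those of a St François array. Among St Pierre replicates 1 to 3 the pairs had 0.454 to 0.539 with a median of 0.512. The pairs of these same fish with St François fish ran from 0.350 to 0.727, on both sides of that range. St Pierre replicates 1 to 3 were therefore not set apart from the other lake by their likeness. Their pairs with replicates 4 and 5 had a median of 0.376. All these pairs share the pool, and each pair shares the brightness of its own arrays.

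The pool channel, which held the same RNA throughout, did not look the same on every lake array. The first set is the lake arrays whose pool channel had a Spearman correlation of 0.95 or more with that of St Pierre replicate 1. These were St Pierre replicates 1 and 2 and St François replicates 1 and 3, at 0.957 to 0.964 among themselves. Their likeness follows in part from this cut. The other 6 arrays, with 3 fish from each lake, correlated at 0.804 to 0.951 among themselves and at 0.815 to 0.897 with the first set. They are called the second set but are not 1 kind of array, since St Pierre replicate 4 and St François replicates 2 and 4 correlated at 0.941 to 0.951 and the remaining 3 were less like these and less like each other. St Pierre replicate 5 had 98 contigs whose pool signal, centred on the median of its array, was over 4-fold from the median profile of the wild arrays, and St Pierre replicate 3 had 88, against 7 to 81 on St François arrays. The labels name no batch that matches these sets, and their part in the results was not tested beyond the values given next. In their ratios, pairs across the lakes correlated at 0.535 to 0.727 within the first set and at 0.309 to 0.627 within the second. The same-lake pairs of the first set had 0.539 for St Pierre and 0.814 for St François. Within the second set St Pierre pairs had 0.381 to 0.388 and St François pairs 0.631 to 0.756, and St François pairs that crossed the sets had 0.467 to 0.619.

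**Figure D4:**
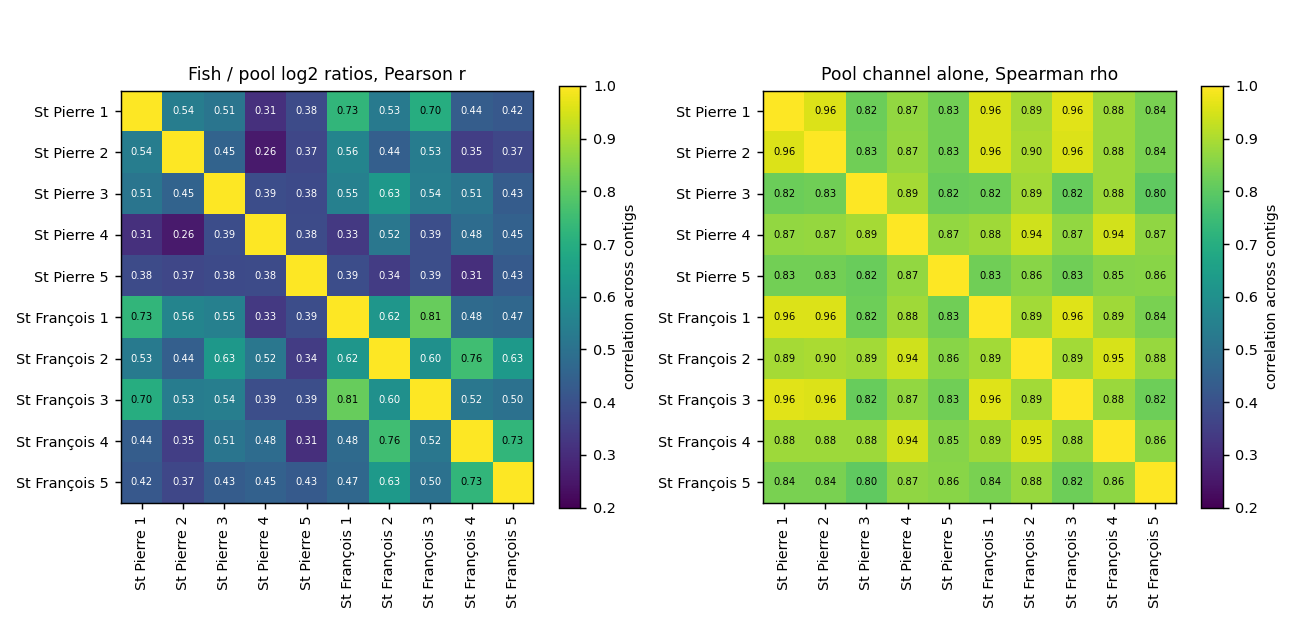
Pearson correlations of log2(fish / pool) across contigs (left) and Spearman correlations of the pool signal alone (right) among the 10 lake arrays, on 1 colour scale from 0.2 to 1. Ratios of St Pierre replicates 4 and 5 correlate least with the rest, and in the pool the first set, St Pierre 1 and 2 and St François 1 and 3, lies at 0.96, and St Pierre 4 with St François 2 and 4 at 0.94 to 0.95.

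Each set holds fish of both lakes, so the differences could be taken within it. contig_25111 differed by 1.26 in the first set and by 1.72 in the second, contig_18174 by 0.98 and 1.24, contig_22875 by 0.28 and 1.20, and contig_24382 by 0.74 and 0.69. Of these, only contig_22875 passed, in the second set (limma adjusted p = 0.0147). The 4 contigs were chosen for their difference over these same 10 fish. In the first set 2 other contigs passed, both lower in St Pierre fish, and in the second set 3 contigs passed, 2 of them higher and 1 lower. With the likeness of each array's pool channel to the other wild arrays as a covariate, 5 contigs passed, the 4 among them. Without St Pierre replicates 4 and 5, which were left out after the data were seen, the differences were 1.27, 1.10, 0.72 and 0.78 in the same order of contigs, 1 contig passed and 0 of the 4 did.

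The sizes also moved with the background correction, since without background subtraction the 4 differences were 0.76, 0.44, 0.43 and 0.35 in the same order of contigs and none passed (limma adjusted p = 0.325 to 0.874). The 4 calls also depended on single fish. None of the 4 passed without St François replicate 4 or without replicate 5, where limma called 0 contigs at smallest adjusted p of 0.141 and 0.0878 (72 and 82 contigs at an unadjusted p of 0.05), and their differences were then 0.61 to 1.48. Without St Pierre replicates 1 to 5 in turn 7, 6, 2, 2 and 2 contigs passed, and without St François replicates 1, 2 and 3 in turn 7, 2 and 1. The fit of the 10 lake fish alone called 0 contigs, with 60 at an unadjusted p of 0.05.

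Each lake was then set against the rivers. The 2 comparisons share the same 10 river fish, so their values are given side by side. In St Pierre fish 12 contigs passed (1.21% of 992), 7 of them higher (0.706%) and 5 lower (0.504%) than in the rivers. In St François fish 8 passed (0.806%), with 4 higher and 4 lower (0.403% each). At an unadjusted p of 0.05, 11.3% of the contigs passed in St Pierre fish and 8.67% in St François fish, against 8.87% between the lakes, and the median size of the difference was 0.13 and 0.12. The mean of 10 river fish gives these differences a smaller SE, 0.162 in the median contig against 0.187 between the lakes. The rivers themselves, Sud-Ouest against St Jean, differed at 0 contigs by limma, with 99 at an unadjusted p of 0.05. Against Sud-Ouest and St Jean taken singly, 14 and 16 contigs passed in St Pierre fish and 12 and 9 in St François fish.

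contig_15825 rose most in St Pierre fish. It had 1.14, 1.14, 1.10, 0.93 and 1.17 there, 0.86, −0.23, −0.37, −1.24 and −0.73 in St François fish, and −2.29 to 0.87 in the river fish. The St Pierre fish lay closer together than at any other site, with an SD of 0.098 against 0.446 to 1.39 elsewhere, and all were above every river fish. The difference from the rivers was 1.94 in St Pierre fish (SE 0.39, limma adjusted p = 0.00311) and 0.51 in St François fish (SE 0.39, limma adjusted p = 0.803).

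contig_24942 was the second in St Pierre fish. It had 1.38, 0.25, 0.82, 1.40 and 2.72 there, −0.02, 0.09, 0.53, 0.35 and 0.31 in St François fish, and −0.24 to 0.11 in the river fish. St Pierre replicate 5 was highest and replicate 2 lay among the St François fish. The pool signal behind these ratios was low, 4.67 to 55.5 intensity units on St Pierre arrays. Set against the rivers, contig_24942 differed by 1.37 in St Pierre fish (SE 0.28, limma adjusted p = 0.00311) and 0.30 in St François fish (SE 0.28, limma adjusted p = 0.851). The St Pierre call was lost in 0 of 15 fits that left out 1 fish. Without St Pierre replicates 4 and 5 the St Pierre difference was 0.87 and did not pass (limma adjusted p = 0.238). It also passed neither with array weights (0.96, limma adjusted p = 0.0704) nor with the authors' processed values (2.15, limma adjusted p = 0.118).

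contig_1168 fell most in St Pierre fish. It had 0.81, 1.04, 1.25, −2.83 and 0.63 there, 1.60, 0.47, 0.57, 0.73 and 1.28 in St François fish, and 0.78 to 3.02 in the river fish. St Pierre replicate 4 lay far below all others, with a fish signal of 262.3 and a pool signal of 1438 intensity units, and the other St Pierre fish lay among the St François fish. The difference from the rivers was −2.16 in St Pierre fish (SE 0.46, limma adjusted p = 0.00500) and −1.41 in St François fish (SE 0.46, limma adjusted p = 0.159). The St Pierre difference without replicate 4 alone was −1.41 and passed (limma adjusted p = 0.0358). Its call was lost in 0 of 15 fits that left out 1 fish, but in 5 of all 31 alternatives. Among these were the fit of only the groups compared (limma adjusted p = 0.0979), array weights (−1.58, limma adjusted p = 0.125) and the median of the spots (−1.91, limma adjusted p = 0.0608). Without St Pierre replicates 4 and 5 the difference was −1.31 and did not pass (limma adjusted p = 0.182).

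contig_16133 had −0.26, −0.37, −0.89, −2.28 and −2.18 in St Pierre fish, −0.40, −0.01, −0.54, −0.12 and −1.03 in St François fish, and −1.18 to 2.34 in the river fish. St Pierre replicates 4 and 5 were again the low ones. The river sites were themselves apart at this contig, with means of 1.41 ± 0.74 in Sud-Ouest fish and −0.06 ± 0.70 in St Jean fish (SD, n = 5 each). Set against the rivers it differed by −1.88 in St Pierre fish (SE 0.38, limma adjusted p = 0.00311) and −1.10 in St François fish (SE 0.38, limma adjusted p = 0.204). The St Pierre call was lost in 0 of 15 fits that left out 1 fish. It was lost in 3 of all 31 alternatives. With array weights the difference was −1.45 and did not pass (limma adjusted p = 0.0704). Without St Pierre replicates 4 and 5 the difference was −1.19 (limma adjusted p = 0.311).

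contig_31300 rose most in St François fish and rose in St Pierre fish as well. It had −0.29, 0.00, −0.43, −0.92 and −0.65 in St Pierre fish, 0.26, −0.32, 0.42, 0.18 and 0.23 in St François fish, and −2.83 to −0.73 in the river fish. Every St François fish lay above every river fish, and of the St Pierre fish only replicate 4 lay below the highest river fish. The difference from the rivers was 1.36 in St Pierre fish (SE 0.24, limma adjusted p = 0.00142) and 1.97 in St François fish (SE 0.24, limma adjusted p = 2.20e-06). The lakes differed by −0.61 (SE 0.28, limma adjusted p = 0.494), and Garonne and Gironde had means of 0.07 and 0.04, within the spread of St François.

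contig_26357 had 0.11, 0.78, 0.89, −1.28 and 0.90 in St Pierre fish, 0.86, 1.04, 0.76, 1.00 and 1.72 in St François fish, and −1.51 to 0.19 in the river fish. Again all St François fish lay above all river fish, and St Pierre replicate 4 was the lowest of its lake. On the array of St Pierre replicate 5 the fish and pool signals were 467 and 101.7 intensity units, against 3953 and 6542 on that of replicate 4, so both channels were low there. Relative to the rivers it differed by 0.90 in St Pierre fish (SE 0.25, limma adjusted p = 0.0606) and 1.70 in St François fish (SE 0.25, limma adjusted p = 4.42e-05).

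Of the 4 contigs that were lower in St François fish, the rule named contig_3958 and contig_25111, which is described above. contig_3958 had −0.88, 0.39, 0.01, −2.79 and −1.57 in St Pierre fish, −2.42, −2.87, −2.24, −3.09 and −3.59 in St François fish, and −2.47 to −0.41 in the river fish. All St François fish were low, and St Pierre replicate 4 alone of its lake lay among them. Relative to the rivers contig_3958 differed by 0.26 in St Pierre fish (SE 0.40, limma adjusted p = 0.853) and −1.61 in St François fish (SE 0.40, limma adjusted p = 0.0376). That call was lost in 16 of 30 alternatives, 10 of them among the 15 that left out 1 fish, and without background subtraction the difference was −0.62 (limma adjusted p = 0.521). Between the lakes it was 1.87, the largest of all 992 contigs in size, with an SE of 0.46, and it just missed the threshold (limma adjusted p = 0.0533).

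**Figure D5:**
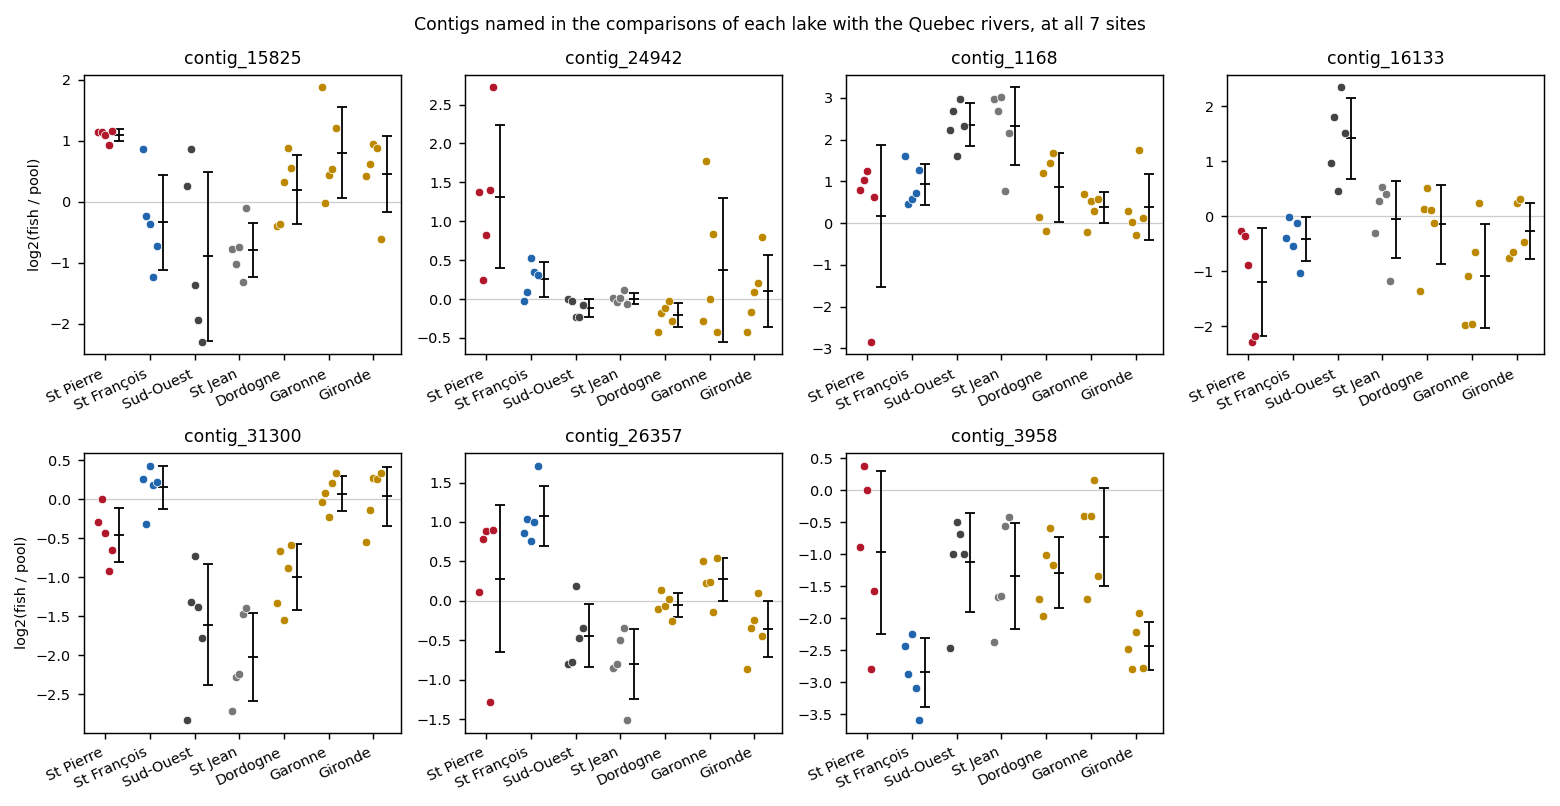
Log2(fish / pool) of every wild fish (points, 5 per site) at the 7 other contigs named in the comparisons of the lakes with the rivers, with the mean and SD of each site as bars beside the points. St Pierre fish lie between 0.93 and 1.17 at contig_15825, replicate 4 of that lake lies at −2.83 at contig_1168, and all St François fish lie above all Sud-Ouest and St Jean fish at contig_31300 and contig_26357.

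The number of calls against the rivers changed with the lake fish that were kept. The river arrays were not assigned to a pool set, and all 10 river fish stayed in these fits. With only the 2 St Pierre fish of the first set, 0 contigs passed, with 63 at an unadjusted p of 0.05. With only the 3 St Pierre fish of the second set, which include replicates 4 and 5, 49 passed. The sets thus also differ in the number of St Pierre fish and in these replicates. The part of the pool channel in this contrast was not tested. For the 2 and 3 St François fish of these sets the counts were 11 and 7. contig_31300 and contig_26357 passed in St François fish under every alternative that was run.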

How the data were processed

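The authors deposited spot intensity values of both channels, foreground and background, as a table of the whole series, per the file headers. They also deposited log2 ratios per contig. These log2 values were recomputed for the 10 lake arrays to within 4.75e-07 from the background-subtracted means of 3 spots, centred on each array's median. Cy3 held the fish and Cy5 the pool on every array, per the labels' protocols. For the scanner, nothing is given in the sources used here.

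Intensities, which ran from 10 to 65535 on the lake arrays, went through normexp background correction (offset 50) and loess normalization of each array in limma 3.58.1 under R 4.3.3, and the 3 spots of a contig were averaged. A linear model with 1 mean per site was fitted to the 35 wild fish (lmFit, eBayes), with Benjamini-Hochberg adjustment over 992 contigs in each comparison and a threshold of 0.05. The rivers are the mean of Sud-Ouest and St Jean. The script was tested on simulated data. A contig was above background where its mean background-subtracted signal was above 0. Each slide held 1 array, so a slide could not be a block. The labels do not say how fish were sampled at a site, and p-values measure only the spread between these fish.

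Contigs were named by rule. Per comparison, these were the 2 higher and 2 lower ones with the largest size among those that passed, provided that all fish of the first site lay on 1 side of the other group's mean and that there was signal above background on at least 3 arrays. Open places went to the smallest unadjusted p. The lakes and the contigs were chosen with earlier results of these data known. Gene and marker lists could not be run, because 0 of 992 contigs matched the 31451 genes of the gene table. Alternatives changed the background correction, normalization, filter on dim contigs, samples fitted, array weights, covariates and spot summary, and left out each fish in turn. Those on the pool sets and on St Pierre replicates 4 and 5 were added after seeing the data.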

Additional observations from a re-analysis of the deposited data

Results flagged for a closer look

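Over 58 groups of 5 fish screened, 13 contigs at several sites each, 3 groups held a fish whose gap to its nearest neighbour exceeded 0.71 of the range of its group, Dixon's 95% critical value, which chance exceeds in about 1 group of 20. contig_1168 in St Pierre replicate 4 was at −2.83, against 0.63 to 1.25 in the other St Pierre fish. contig_15825 in St Pierre replicate 4 was at 0.93, against 1.10 to 1.17 in the others, a gap of small size in a group with little spread. contig_3958 in Sud-Ouest replicate 1 was at −2.47, against up to −0.49 in the other Sud-Ouest fish, and this river fish lowers the river level that both lakes were set against.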

How the results depend on the processing

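No paired analysis was possible because the labels give fish identifiers and no replicate numbers shared between sites. No named difference reversed. For the lakes, the count of 4 became 0 without background subtraction (43 at an unadjusted p of 0.05), 7 with a normexp offset of 10, 1 with median centring, 2 with the authors' processed values, 0 with only the lakes in the fit (60 unadjusted), 0 with only Canadian sites (77 unadjusted) and 8 with the median of the spots, 2 of them lower. With alternatives added after seeing the data it was 1 without St Pierre replicates 4 and 5 and 2 in the first pool set, which held 2 fish of each lake. Those 2 contigs were lower in St Pierre fish, with 0 higher, and 0 were shared with the 4. The 4 kept their direction there without passing. In the second set the count was 3, with 2 higher and 1 lower. It ran from 0 to 7 when each fish was left out in turn. For St Pierre against the rivers, 12 became 7 with only the groups compared and 5 with array weights. It became 0 with only the St Pierre fish of the first pool set and 49 with only those of the second. With each fish left out it was 12 to 33, highest without St Pierre replicate 2 and 24 without replicate 1. For St François against the rivers, 8 became 4 without background subtraction, 5 with only Canadian sites, 17 with array weights and 13 with the median of the spots, and 5 to 9 with each fish left out, lowest without St François replicate 1. The cause was not tested. The difference in contigs above background was −25.3 to −9.55 with each fish left out and −87.2 where the mean had to exceed 2 SD of the 3 spots. Over the named differences that had passed, the call was lost at 82 alternative values, all in the same direction as before. Among those that had not passed, contig_26814 between the lakes passed with the median of the spots. All other values kept their direction and side of the threshold.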
